A study of Mus musculus with 3 samples.

Results

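The 9 genes described here are proteases of the mouse ocular surface epithelium and the inhibitors that hold such enzymes in check. The proteases are the serine proteases Tmprss11d, Prss22 and Prss27 and the aspartic protease Asprv1. The inhibitors are Spink5, Serpinb3a and the stefins Stfa1, Csta1 and Cstdc5. The members were given by name and looked up by symbol in a single-cell count table, where 9 of 9 were present among 17931 genes. The study sampled the corneal epithelium of homeostatic C57BL/6J mice, and the labels give no treatment and no transgene. Epithelial sheets were lifted with an enzyme, broken into cells with trypsin and made into 3 droplet libraries that read the 3′ ends of transcripts. Library 1 pooled 4 corneas of 2 males of 20 weeks, library 2 pooled 4 corneas of 2 females of 11 weeks, and library 3 pooled 7 corneas of 7 males of 10 weeks. Age, sex and the number of pooled mice change together between the libraries, so libraries were not tested against each other and serve as 3 replicates of 1 group. The cell classes are the labels the authors deposited for each cell. They are conjunctival (deposited as Conj), superficial (Squam), wing (Wing), TAC2, TAC1, limbal (LSC), basal (Basal) and immune (Immune) cells.

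Stratified epithelia shed their outermost cells, and proteases at the cell surface and in the outer layers take part in that turnover and in the processing of barrier proteins. Their activity is limited by inhibitors of matching kinds. Kazal-type inhibitors such as the product of Spink5 block kallikrein-like serine proteases, and stefins and some clade B serpins block cysteine cathepsins inside cells. The cornea keeps this system in a moist, non-keratinised epithelium that renews from limbal and basal cells through wing cells to superficial squamous cells, beside the conjunctiva.

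The 3 stefin genes lie together on chromosome 16 and were high in the same classes, so their start regions are shown. Csta1 (chr16:36119946-36131241, minus strand), Stfa1 (chr16:36276951-36285373, plus strand) and Cstdc5 (chr16:36359382-36367748, minus strand, named BC100530 in the annotation) span 247803 bases that hold 8 protein-coding genes (GENCODE M21, GRCm38). The sequences below are from RefSeq on build GRCm38.p6, from 250 bases before to 50 bases after each RefSeq start, on the strand of the gene, and 7 of the 9 members had one in the table used. For these 3 stefins the RefSeq start lies inside the GENCODE span given above, so part of the bases before it lie within that span. Stfa1 is at chr16:36276898-36277197 on the plus strand, Csta1 at chr16:36131140-36131439 and Cstdc5 at chr16:36367521-36367820, both on the minus strand. Capitals mark the letters TTTAAA.
Stfa1: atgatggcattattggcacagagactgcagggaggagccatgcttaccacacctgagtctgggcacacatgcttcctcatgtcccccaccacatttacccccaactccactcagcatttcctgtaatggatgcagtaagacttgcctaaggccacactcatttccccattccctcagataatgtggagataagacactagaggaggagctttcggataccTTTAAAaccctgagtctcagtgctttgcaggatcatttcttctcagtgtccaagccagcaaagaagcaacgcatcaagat
Csta1: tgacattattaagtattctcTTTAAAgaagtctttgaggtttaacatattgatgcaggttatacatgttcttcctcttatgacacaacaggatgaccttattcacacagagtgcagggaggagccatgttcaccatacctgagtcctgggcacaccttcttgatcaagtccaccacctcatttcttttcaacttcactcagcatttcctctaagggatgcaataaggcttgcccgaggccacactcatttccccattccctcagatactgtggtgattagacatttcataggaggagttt
Cstdc5: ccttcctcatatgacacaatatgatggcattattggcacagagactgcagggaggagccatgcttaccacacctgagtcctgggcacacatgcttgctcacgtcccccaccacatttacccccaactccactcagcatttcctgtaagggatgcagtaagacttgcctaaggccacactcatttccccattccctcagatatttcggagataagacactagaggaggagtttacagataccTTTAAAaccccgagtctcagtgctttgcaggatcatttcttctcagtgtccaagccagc
Stfa1 and Cstdc5 were identical at 96.1% of 280 aligned bases, Csta1 and Cstdc5 at 83.7% of 233, and Stfa1 and Csta1 at 82.5% of 212. The letters TTTAAA began at −30 from the RefSeq start in Stfa1, at −9 in Cstdc5 and at −230 in Csta1, and 13.2% of 27025 promoters of this length hold them on either strand. In Stfa1 and Cstdc5 they sit in the same matching stretch, so −30 and −9 differ by where the start is annotated. The Csta1 window ends before that stretch, and its TTTAAA lies elsewhere. The AP-1 letters TGANTCA (7.93% of promoters) were found once among the 7 members with a sequence, at −39 of Tmprss11d. The TATA letters TATAAA (14.2%) were found once, at −65 of Serpinb3a. The letters CACCC (56.7%) were found 3 times in Asprv1 and in none of the other 6, and the grainyhead letters AACCNGTT (2.01%) in none of the 7. Both strands were searched, and TTTAAA reads the same on both and can share bases with TATAAA. A match describes the letters of the window and no binding.

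The other members lie apart, save for one pair. Prss22 (chr17:23993534-23998100, minus strand) and Prss27 (chr17:24038144-24045954, plus strand) are neighbours, with no other protein-coding gene within the 52421 bases they span. Tmprss11d is at chr5:86302217-86373420, minus strand, Asprv1 at chr6:86628164-86629710, plus strand, Spink5 at chr18:43963235-44022501, plus strand and Serpinb3a at chr1:107045587-107052303, minus strand. Of 411 stretches of 90 bases in the last 500 transcript bases, where this kit reads, 39 of Stfa1 and 88 of Cstdc5 recur in another stefin gene and 0 of each other member do. Handling of reads that match several genes was not given in the sources used here, so the split between Stfa1 and Cstdc5 is uncertain.

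The table held 38111 cells with 177449217 to 190393121 UMIs (unique molecular identifiers, counts of captured transcripts) per library. The libraries shared 32, 57 and 53 cell barcodes in pairs, and no pair of libraries agreed within sampling noise. Class sizes ran from 114 immune and 737 limbal cells to 13447 wing cells, and median depth from 1975.5 UMIs in immune and 8417 in basal cells to 15018.5 in superficial cells. Of 33 marker genes 29 were in the table. Limbal markers summed to 3376 to 3856 CPM in limbal cells and 137 to 257 CPM in basal cells. By their means, all 4 superficial and all 5 conjunctival markers were highest in their own class. The ranges over libraries overlapped those of wing cells for Slurp1 and Ly6g6c, and Krt7 overlapped between conjunctival and superficial cells. Cycling markers summed to 1213 to 1345 CPM in TAC2 but only 73.4 to 110.4 CPM in TAC1, under the 134 to 171 CPM of limbal cells. The basal markers did not single out the basal class, since Krt14 was highest in limbal, Krt5 in wing and Col17a1 in TAC1 cells. Most of the limbal sum was Gpha2 (2700 ± 135 CPM), and the limbal marker Cd63 was higher in immune (323 ± 187 CPM) than in limbal cells (121 ± 2.50 CPM). Of the wing and corneal markers Krt12 was highest in wing cells, but Aldh3a1 in basal cells (15146 ± 1660 CPM, against 9085 ± 1109 CPM in wing cells). Immune markers summed to 22014 to 29287 CPM in immune cells and at most 8.39 CPM in any sum of another class, and Muc5ac, Kera, Col1a1 and Cd3e were not analysed here.

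Levels are given as CPM, the UMIs of a gene per 1000000 UMIs of its class in 1 library, and a mean is given with its SD over the 3 libraries. The kit counts transcript ends and not their length, so levels are compared between classes and not between genes. Droplets also hold free RNA. Immune cells were set beside the epithelial classes as the class least expected to use these proteases, Spink5 and Serpinb3a, while mouse neutrophils are known to use stefins. Their cells are shallow, so free RNA may be a larger share of their UMIs than in epithelial cells, and an epithelial level inside or under their range was taken as one that cannot be told apart from free RNA, not as absence. Their values rest on 26, 68 and 20 cells and on 0 to 5 UMIs a library for Prss22, Prss27, Spink5, Serpinb3a and Stfa1, and 0 UMIs in the shallowest of these sums allows up to 84.6 CPM.

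Tmprss11d, a trypsin-like serine protease anchored in the cell membrane, was the one member with its highest level at the base of the epithelium. Basal cells held 539, 553 and 598 CPM in libraries 1, 2 and 3, and TAC1 cells 509, 469 and 614 CPM. TAC2 cells held 347, 296 and 401 CPM and wing cells 310.2, 323 and 351 CPM. Basal and TAC1 ranges overlapped, as did those of TAC2 and wing, and both TAC1 and basal cells lay above TAC2 in every library. Limbal cells (51.0 to 96.9 CPM), conjunctival cells (44.1 to 57.2 CPM) and superficial cells (39.8 to 41.9 CPM) were no higher than the 28.2 to 177 CPM of immune cells. The gene was above the immune range in 4 of the 7 epithelial classes.

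Prss22, a secreted serine protease also called tryptase epsilon, was a superficial gene. Superficial cells held 2026, 1099.5 and 1531 CPM, conjunctival cells 95.0, 58.3 and 85.3 CPM and wing cells 49.8, 28.4 and 45.1 CPM. These 3 ranges did not overlap, and library 2 was the lowest in each class. Limbal (17.1 to 24.8 CPM), basal (9.57 to 14.5 CPM), TAC2 (8.78 to 13.5 CPM) and TAC1 cells (8.01 to 11.2 CPM) were within the 5.11 to 31.2 CPM of immune cells. Prss27, the serine protease marapsin, known from stratified squamous epithelia, held 1646, 1558 and 1572 CPM in superficial, 316, 371 and 297 CPM in conjunctival and 107, 100.2 and 102 CPM in wing cells. Its limbal level of 45.1, 35.6 and 59.98 CPM was also above the 0 to 15.3 CPM of immune cells, and no neighbours overlapped down to limbal cells. Basal, TAC1 and TAC2 cells held 3.17 to 4.64 CPM on average, inside the immune range.

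Asprv1 encodes a retroviral-like aspartic protease that processes profilaggrin in mouse epidermis. Superficial cells held 27938, 29783 and 25637 CPM, a mean of 27786 ± 2077 CPM. Conjunctival cells held 6025, 7649.7 and 5949.8 CPM, wing cells 3920.0, 3511 and 4086 CPM and limbal cells 1661, 1077 and 1259 CPM. No neighbours in this order overlapped. Basal (57.7 to 126 CPM), TAC1 (48.1 to 117 CPM) and TAC2 cells (108 to 142 CPM) reached no more than the immune cells (113 to 449 CPM).

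**Figure D1:**
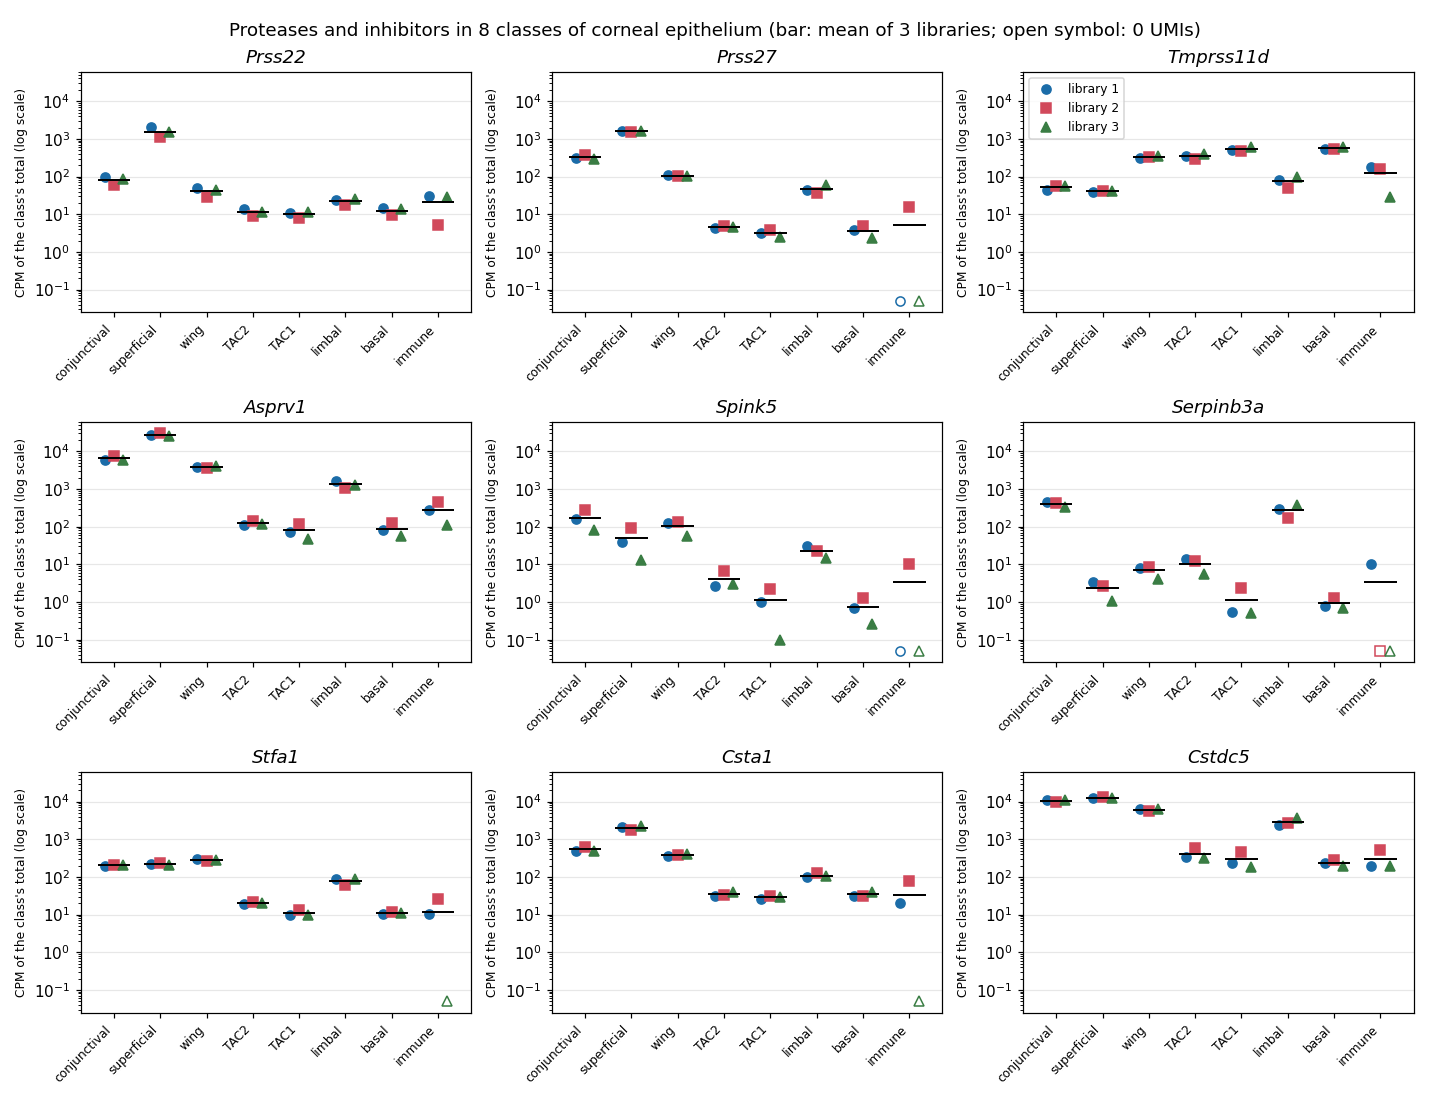
Each panel plots 1 gene, with CPM on a log axis against the 8 cell classes; symbols are the 3 libraries, the bar is their mean and an open symbol stands for 0 UMIs. Asprv1 in superficial cells sits at 25637 to 29783 CPM, while Tmprss11d is highest in basal and TAC1 cells and Serpinb3a in conjunctival and limbal cells.

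Spink5 encodes LEKTI, the Kazal-type inhibitor whose loss causes Netherton syndrome in humans. Conjunctival cells held 164, 270.1 and 83.0 CPM, wing cells 124, 134 and 57.5 CPM, superficial cells 39.9, 94.8 and 13.1 CPM and limbal cells 31.6, 22.9 and 14.4 CPM in libraries 1, 2 and 3. Neighbours in this order all overlapped over the 3 libraries, yet within each library the conjunctival level was above the wing level and the wing level above the superficial one. Basal, TAC1 and TAC2 cells held 0.740, 1.13 and 4.11 CPM on average, within the 0 to 10.2 CPM of immune cells.

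Serpinb3a, a clade B serpin related to the human squamous cell carcinoma antigens, was found mainly in conjunctival and limbal cells. Conjunctival cells held 444, 415 and 324 CPM and limbal cells 296, 168 and 369 CPM, and the ranges overlapped. No other class passed 13.5 CPM, which TAC2 cells reached in library 1. Wing cells held 7.95, 8.75 and 4.12 CPM and superficial cells 3.50, 2.72 and 1.04 CPM, in the range of immune cells (0 to 10.4 CPM). Superficial cells, where Asprv1, Prss22 and Prss27 were highest, were thus not above immune cells in Serpinb3a.

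The stefins are small cytosolic inhibitors of cysteine cathepsins. Cstdc5 held 12138, 13018 and 12228 CPM in superficial, 11075, 9464 and 11237 CPM in conjunctival, 6242, 5752 and 6157 CPM in wing and 2369, 2723 and 3646 CPM in limbal cells, with no overlap between neighbours. Csta1 followed the same order, at 2042, 1798 and 2239 CPM in superficial, 486, 623 and 489 CPM in conjunctival, 368, 387 and 416 CPM in wing and 96.6, 124 and 104 CPM in limbal cells. Stfa1 did not: wing cells held 293, 264 and 283 CPM, above superficial cells with 214, 228 and 205 CPM, whose range overlapped that of conjunctival cells with 199, 209.7 and 201 CPM. Its limbal level was 88.6, 62.3 and 85.9 CPM. Basal, TAC1 and TAC2 cells were at or under the immune range for all 3 stefins, save that TAC2 cells in library 2 held 566 CPM of Cstdc5 against an immune maximum of 506 CPM.

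The order of the libraries was the same across classes for a few members. Prss22 was lowest in library 2 in 7 of 7 epithelial classes, as were 6.99% of 7000 genes. Tmprss11d was highest in library 3 in 7 of 7, as were 7.21% of those genes. These are 2 of the 9 members, and 29.1% of the genes had some library at one end in 7 of 7 classes. Spink5 was highest in library 2 in 6 of 7 classes and lowest in library 3 in 6 of 7, and its conjunctival level spanned 83.0 to 270.1 CPM. Serpinb3a was lowest in library 3 in 6 of 7 classes but highest there in limbal cells. In 54.7% of the genes some library was at one end in 6 or more of the 7 classes, so such an order is not particular to these members. The libraries differ in age, sex, pooling and depth, and the part of each in these differences cannot be told apart.

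At equal depth, with every cell thinned at random to 2000 UMIs and 609 shallower cells left out, most superficial cells carried several members. The share of superficial cells with a UMI was 99.8% ± 0.173 for Cstdc5, 90.7% ± 1.52 for Csta1, 80.6% ± 0.382 for Prss27 and 66.4% ± 5.62 for Prss22 (mean and SD, n = 3 libraries). Asprv1 was detected in 5212 of 5212 superficial cells. Tmprss11d was found in 60.2% ± 3.34 of basal, 58.1% ± 4.99 of TAC1, 43.5% ± 5.80 of TAC2 and 44.8% ± 0.892 of wing cells, and in 5.58% ± 0.464 of superficial cells. Pooled over libraries, immune cells carried Asprv1 in 42.9% (95% interval 29.7 to 56.8) of 56 cells, Cstdc5 in the same share and Tmprss11d in 10.7% (95% interval 4.03 to 21.9). These 56 are the immune cells with at least 2000 UMIs, while the median over all 114 was 1975.5 UMIs. As means over libraries, immune cells were at 34.2% ± 15.9 for Asprv1 and 37.7% ± 17.9 for Cstdc5, on 16, 35 and 5 cells. The share of basal cells with Asprv1 (16.5% ± 5.78) was below that of immune cells in every library. That with Cstdc5 (30.2% ± 5.45) was below it in libraries 2 and 3 but above it in library 1 (31.2% against 18.75%).

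Serpinb3a was found in 39.99% ± 5.75 of conjunctival and 18.7% ± 5.55 of limbal cells, in 0.313% ± 0.158 of superficial cells, and in 0 of 56 immune cells, which allows a share of up to 5.36%. Spink5 was found in 21.7% ± 9.36 of conjunctival, 12.8% ± 3.99 of wing and 7.11% ± 5.67 of superficial cells. Stfa1 was found in 31.5% ± 2.04 of wing, 26.8% ± 1.65 of superficial and 27.5% ± 0.207 of conjunctival cells. Before thinning, the pooled shares were higher, as in 63.5% of conjunctival cells for Serpinb3a, 95.1% of superficial cells for Prss22 and 86.3% of basal cells for Tmprss11d. The intervals are exact binomial ones, the limit for 0 cells is 3 cells of the total, and both cover counting error only.

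**Figure D2:**
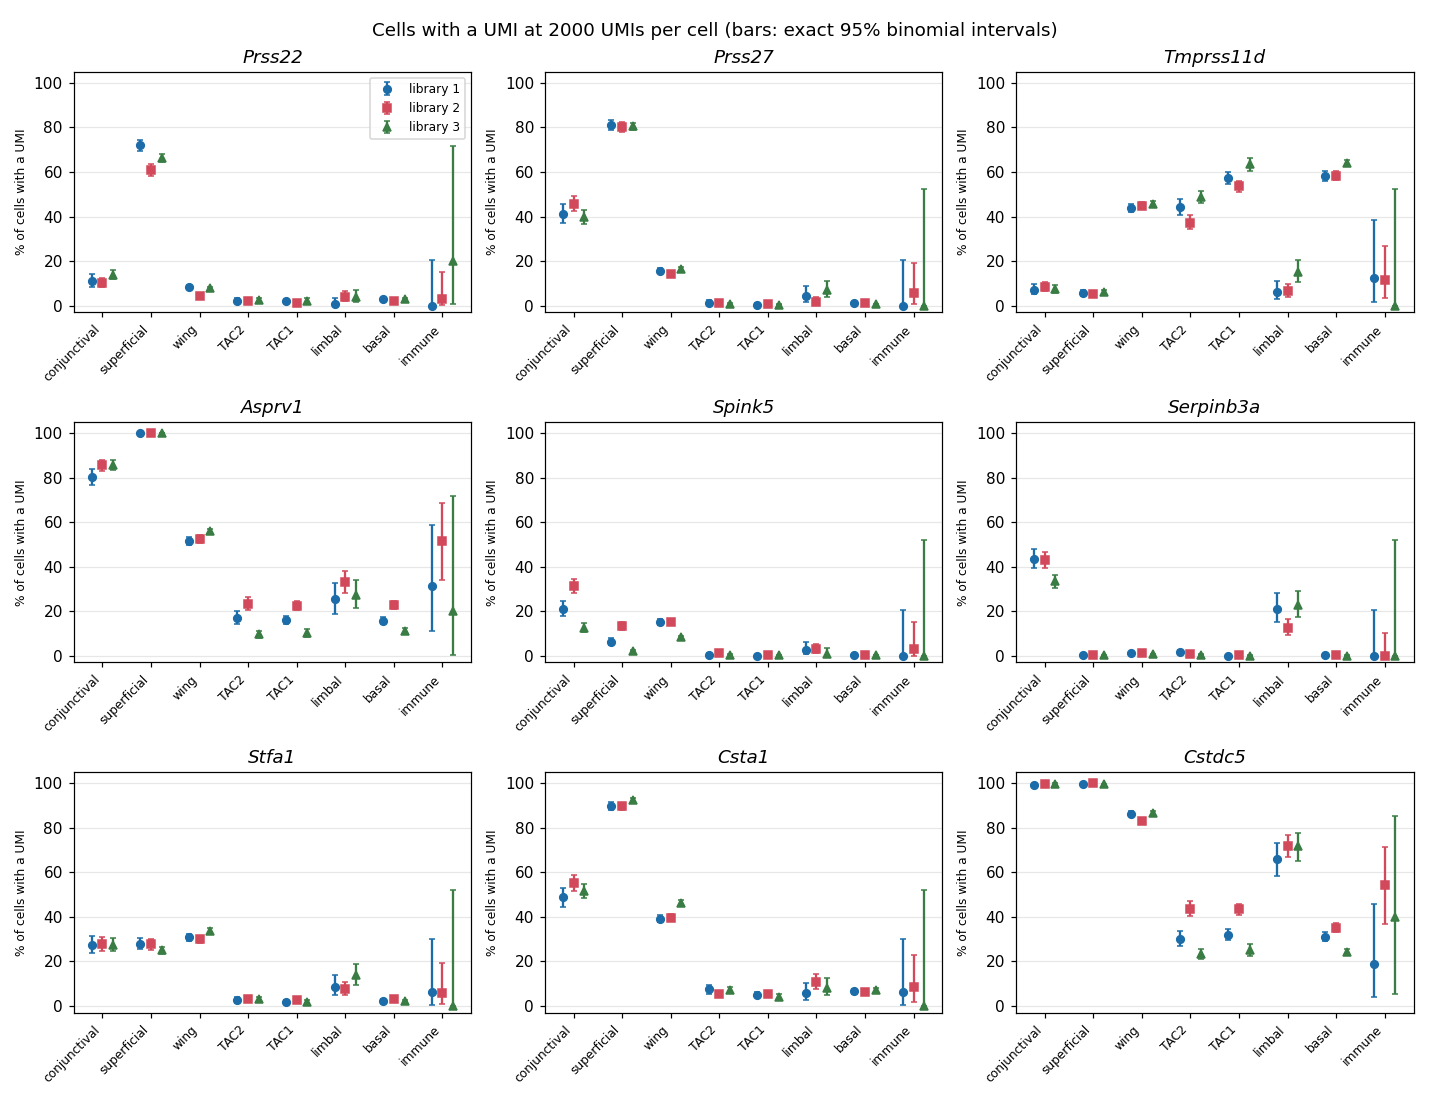
Each panel plots, for 1 gene, the percentage of cells with a UMI at 2000 UMIs per cell against the 8 classes; symbols are the 3 libraries and bars are exact binomial intervals of 95%. Immune cells carry wide intervals, and Asprv1 and Cstdc5 fill the superficial class at 99.7% or more in every library.

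A single superficial cell usually held several members at once. At 2000 UMIs the median number of members per cell was 5 in superficial, 4 in conjunctival, 3 in wing and 1 in limbal, basal, TAC1 and TAC2 cells, in each of the 3 libraries. Cells with 5 or more members made up 68.5% ± 2.22 of superficial, 29.99% ± 7.35 of conjunctival and 15.2% ± 0.610 of wing cells, and 1.504% ± 1.10 of limbal cells. The neighbours Prss22 and Prss27 were found in the same cell in 63.0, 53.3 and 57.3% of superficial cells and in 2.80, 1.28 and 2.80% of wing cells. Within a class, Asprv1 was spread over most superficial cells, of which the top 10% held 17.5, 17.9 and 16.5% of its UMIs in libraries 1, 2 and 3. The top 10% held 56.7, 59.3 and 45.4% in wing cells and 85.6, 77.3 and 83.3% in limbal cells. Cstdc5 showed a narrower contrast, with 20.8, 20.3 and 20.9% in superficial, 33.6, 36.0 and 31.9% in wing and 43.5, 42.0 and 40.6% in limbal cells.

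Fold changes between classes were then estimated from the summed counts of each class and library, with the 3 libraries as a block in edgeR's quasi-likelihood test. They are log2 values scaled by TMM (a factor that centres most genes on no change). The value after ± is an approximate standard error, the size of the fold change divided by the square root of the test's F statistic. It is not an output of the fit and does not rank genes as the p-values do. Adjusted p-values are by Benjamini and Hochberg over all genes tested in a comparison, with a threshold of 0.05. All 9 members passed the filter on low counts in all 6 comparisons. The authors' classes were made from the same counts, so p-values describe the annotated classes. Cells were also reassigned from 50% of their UMIs and tested on the rest, each taking the commonest deposited label among its 15 nearest cells. Those labels were made from all the counts, the tested ones included, so this cannot free the test from the labels. Of the cells 90.66% kept their class, and 50 of the 54 fold changes of members kept direction and call. The 4 exceptions were all in TAC against basal cells, where Prss22 and Csta1 lost their call and Prss27 and Asprv1, which had none, changed sign. Scaling to totals in place of TMM moved the median of all genes by −0.97 for superficial against wing, 0.78 for conjunctival against superficial, −0.33 for conjunctival against basal, −0.19 for wing against basal and 0.12 for limbal against basal cells. Directions below hold under both scalings unless stated.

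In wing cells, the layers above the basal one, 8 members rose and 1 fell against basal cells. Of 13516 genes tested, 77.0% passed, 38.6% higher and 38.4% lower. Of the genes passing, 50.1% were higher, and 38.1% when scaled to totals. The median of the members was 4.87, beside −0.020 over all genes. Tmprss11d fell to 328 ± 20.8 CPM in wing cells, against 563 ± 30.9 CPM in basal cells (−0.59 ± 0.046, adjusted p = 1.5e-07 by edgeR). Among the other proteases Asprv1 rose by 5.68 ± 0.40 (adjusted p = 0.0032), Prss27 by 5.02 ± 0.13 (adjusted p = 1.1e-08) and Prss22 by 1.90 ± 0.060 (adjusted p = 3.6e-11). The inhibitors rose too, and Spink5 had the largest value of the 9, at 105.2 ± 41.6 CPM in wing and 0.740 ± 0.512 CPM in basal cells (7.36 ± 0.11, adjusted p = 2e-13). Stfa1 was at 4.87 ± 0.064, Cstdc5 at 4.89 ± 0.11, Csta1 at 3.71 ± 0.064 and Serpinb3a at 3.11 ± 0.15, with adjusted p of 4e-09 or less. In basal cells 8 of these 9 genes were inside or under the immune range, so those fold changes are measured against a level that free RNA may give. At 2000 UMIs per cell Spink5 was at 6.48 (adjusted p = 1.85e-24).

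In superficial against wing cells the members parted. Prss22, Prss27, Asprv1, Csta1 and Cstdc5 rose, Stfa1 rose with TMM but turned when scaled to totals, Tmprss11d and Serpinb3a fell, and Spink5 did not pass the test. Of 13169 genes 78.8% passed, 37.5% higher and 41.3% lower, and the share of higher genes among them was 47.5% with TMM and 17.1% when scaled to totals. The median of the members was 2.02, beside −0.11 over all genes. Prss22 was at 1552 ± 464 CPM in superficial and 41.1 ± 11.2 CPM in wing cells (6.21 ± 0.078, adjusted p = 4.1e-19 by edgeR), and Prss27 at 1592 ± 47.2 CPM in superficial and 103 ± 3.48 CPM in wing cells (4.92 ± 0.067, adjusted p = 6.4e-19). Every superficial value of both was above every wing value. Asprv1 rose by 3.83 ± 0.091, Csta1 by 3.35 ± 0.066 and Cstdc5 by 2.02 ± 0.068, with adjusted p of 2.3e-13 or less. Tmprss11d was at 40.9 ± 1.03 CPM in superficial and 328 ± 20.8 CPM in wing cells (−2.03 ± 0.062, adjusted p = 1.1e-14).

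Stfa1 depended on the scaling, at 0.60 ± 0.067, adjusted p = 4e-07 with TMM but −0.38 (adjusted p = 1.6e-05 by edgeR) when scaled to totals. Its CPM were lower in superficial than in wing cells in 3 of 3 libraries, while the stefins Csta1 and Cstdc5 rose under both scalings. Serpinb3a, inside the immune range in both classes, was at −0.57 ± 0.14, adjusted p = 0.0015, and at −1.30 (adjusted p = 1.23e-06) without the 10% of cells that scored highest against simulated doublets. Spink5 was at 39.9, 94.8 and 13.1 CPM in superficial and 124, 134 and 57.5 CPM in wing cells, lower in 3 of 3 libraries before TMM, with −0.40 ± 0.48, adjusted p = 0.53. Library 2 decided this call: without it Spink5 fell, at −0.90 (adjusted p = 9.88e-07).

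In conjunctival cells 8 members rose and Tmprss11d fell against basal cells. Of 12606 genes 76.9% passed, 37.2% higher and 39.7% lower, and 48.4% of those passing were higher, or 34.2% when scaled to totals. The median of the members was 5.83, beside −0.068 over all genes. Serpinb3a had the largest value, at 395 ± 62.6 CPM in conjunctival and 0.914 ± 0.286 CPM in basal cells (9.08 ± 0.12, adjusted p = 5.1e-15 by edgeR), followed by Spink5 (8.20 ± 0.11, adjusted p = 3.1e-15). The proteases Prss27 (6.84 ± 0.12), Asprv1 (6.59 ± 0.21) and Prss22 (3.00 ± 0.079) and the stefins Cstdc5 (5.83 ± 0.23), Stfa1 (4.55 ± 0.076) and Csta1 (4.29 ± 0.15) rose with adjusted p of 0.0003 or less. Tmprss11d was at 52.6 ± 7.32 CPM in conjunctival and 563 ± 30.9 CPM in basal cells (−3.10 ± 0.075, adjusted p = 2.9e-13), and at −3.78 (adjusted p = 3.18e-12) without the cells of highest doublet score. At 2000 UMIs Serpinb3a was at 9.89 (adjusted p = 1.71e-29) and Spink5 at 7.45 (adjusted p = 1.02e-24).

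Conjunctival cells set against superficial cells separated the inhibitors from one another. Serpinb3a rose and Spink5 did not pass, while the 4 proteases and the 3 stefins fell with TMM, of which Tmprss11d turned and Stfa1 lost its call when scaled to totals. Of 11765 genes 71.1% passed, 35.7% higher and 35.4% lower, and the share higher among them was 50.2%, or 82.6% when scaled to totals. The median of the members was −1.02, beside 0.034 over all genes. Serpinb3a was at 395 ± 62.6 CPM in conjunctival and 2.42 ± 1.26 CPM in superficial cells (6.61 ± 0.21, adjusted p = 2.1e-06 by edgeR). It was at 7.39 (adjusted p = 1.81e-23) at 2000 UMIs and 7.68 (adjusted p = 1.44e-16) without the highest doublet scores. Prss22 fell by more than the other members (−5.06 ± 0.081, adjusted p = 6.7e-20), then Prss27 (−3.07 ± 0.077), Asprv1 (−2.88 ± 0.080), Csta1 (−2.72 ± 0.11) and Cstdc5 (−1.02 ± 0.084), with adjusted p of 9.3e-09 or less.

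The calls of Tmprss11d, Stfa1 and Spink5 hung on a setting. Tmprss11d, inside the immune range in both classes, was at −0.43 ± 0.073, adjusted p = 3.1e-05 with TMM, but 0.36 (adjusted p = 0.00025 by edgeR) when scaled to totals, and −0.20 (adjusted p = 0.237) at 2000 UMIs. Stfa1, at 199, 209.7 and 201 CPM in conjunctival and 214, 228 and 205 CPM in superficial cells, was at −0.87 ± 0.065, adjusted p = 2.9e-10 with TMM and −0.083 (adjusted p = 0.2) when scaled to totals. Spink5 was higher in conjunctival cells in 3 of 3 libraries, at 1.24 ± 0.31, adjusted p = 0.061. It passed when scaled to totals (2.02, adjusted p = 0.02), with DESeq2 (1.27, adjusted p = 3.94e-04), without library 2 (1.55, adjusted p = 2.96e-13) and without library 3 (0.98, adjusted p = 5.94e-05).

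**Figure D3:**
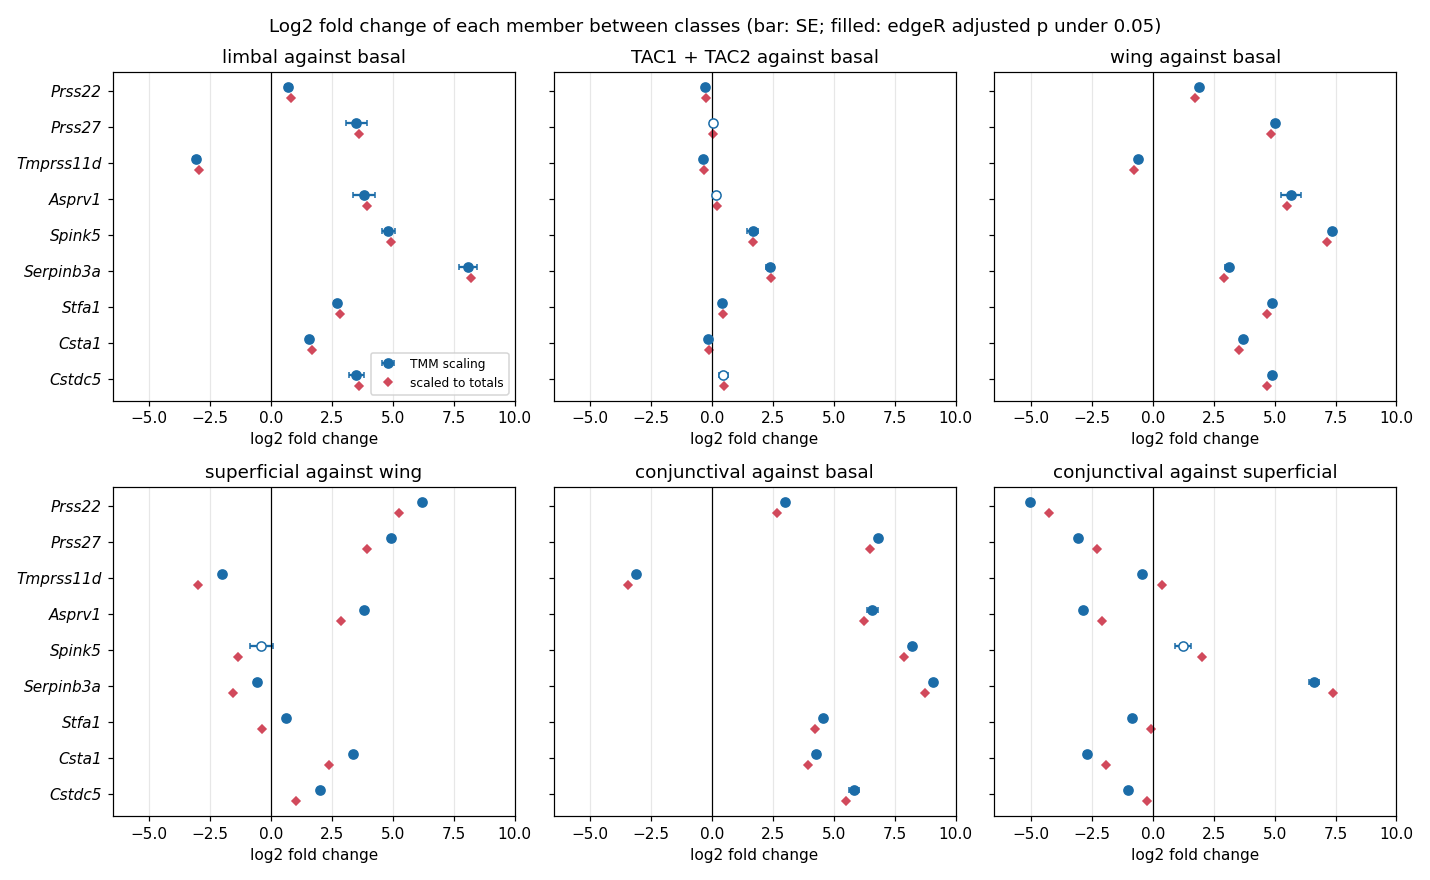
Each panel plots 1 comparison of classes, with log2 fold change on the horizontal axis and the 9 genes in rows. Circles are TMM-scaled values with the approximate standard error from the F statistic, filled where the edgeR adjusted p was under 0.05, and diamonds are values scaled to totals. Tmprss11d lies left of 0 in the comparisons with basal or wing cells, Serpinb3a lies at 6.61 in conjunctival against superficial cells, and the diamonds of the superficial panels are shifted.

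In limbal cells, which lie at the rim of the cornea, 8 members rose and Tmprss11d fell against basal cells. Of 12462 genes 40.4% passed, 21.4% higher and 19.0% lower, and 53.0% of those passing were higher, or 68.1% when scaled to totals. The median of the members was 3.49, beside −0.013 over all genes. Serpinb3a rose by 8.08 ± 0.37 (adjusted p = 0.0012 by edgeR), to 278 ± 102 CPM in limbal cells against 0.914 ± 0.286 CPM in basal cells. Spink5 was at 4.82 ± 0.26, adjusted p = 2.2e-27, Stfa1 at 2.71 ± 0.12, adjusted p = 1.2e-34 and Prss27 at 3.50 ± 0.42, adjusted p = 0.012. Asprv1 (3.82 ± 0.45, adjusted p = 0.025), Cstdc5 (3.49 ± 0.31, adjusted p = 0.015), Csta1 (1.56 ± 0.098, adjusted p = 5.6e-23) and Prss22 (0.70 ± 0.15, adjusted p = 4.6e-05) passed as well, and Tmprss11d was at −3.06 ± 0.16, adjusted p = 1.4e-06.

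Several of the limbal calls were lost with fewer samples, at 2000 UMIs per cell, with no filter on low counts or without the highest doublet scores. At 2000 UMIs, where each cell also counts equally, the fold changes of all members but Serpinb3a and Tmprss11d were smaller too. Among them were Csta1 (1.56 at full depth) and Prss22 (0.70 at full depth). On 50% of UMIs with the deposited classes these 2 and Asprv1 kept their size and call in edgeR. Csta1 was at 1.60 (adjusted p = 4.82e-15), Prss22 at 0.75 (adjusted p = 0.00132) and Asprv1 at 3.79 (adjusted p = 0.0313) there. Without a library the fold changes of Asprv1, Cstdc5 and Prss27 stayed about as large while the call was lost. Asprv1 lost its call without library 1 (3.63, adjusted p = 0.166), without library 3 (3.59, adjusted p = 0.234), with no filter on low counts (3.79, adjusted p = 0.0503) and at 2000 UMIs (2.58, adjusted p = 0.0537). Cstdc5 lost its call without library 2 (3.66, adjusted p = 0.18), at 2000 UMIs (3.07, adjusted p = 0.0927) and without the highest doublet scores (3.16, adjusted p = 0.0506), and Prss27 without library 1 (3.55, adjusted p = 0.0512). Csta1 fell short at 2000 UMIs (0.43, adjusted p = 0.139) and without the highest doublet scores (0.33, adjusted p = 0.0931), and Prss22 at 2000 UMIs (0.24, adjusted p = 0.722). Without the highest doublet scores Prss22 turned to −0.24 (adjusted p = 0.492), Asprv1 was at 1.26 (adjusted p = 0.0258), Prss27 at 2.13 (adjusted p = 2.25e-04) and Tmprss11d at −4.73 (adjusted p = 7.01e-15). Spink5 was at 5.48 (adjusted p = 2.57e-50) without library 2 and 3.33 (adjusted p = 2.61e-06) at 2000 UMIs, and Prss27 at 2.25 (adjusted p = 1.83e-07) there. Serpinb3a was at 8.72 at 2000 UMIs and at 7.10 (adjusted p = 1.60e-28) with reassigned classes.

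Keratins of mucosal epithelium moved with these genes inside the limbal class. Conjunctival markers, all keratins, summed to 1847 to 2523 CPM in limbal cells, 28.4 to 72.5 CPM in basal cells and 12221 to 14835 CPM in conjunctival cells. Thinned to 2000 UMIs, 175 of 727 limbal cells had 3 or more UMIs of Krt4, Krt13 and Krt19 together, and they were set beside the other 552, as a description with no test. At that depth cells with these keratins held 2086, 1550.0 and 1658 CPM of Asprv1 in libraries 1, 2 and 3, against 134, 222 and 352 CPM in cells without them. Serpinb3a was at 671, 506 and 1033 CPM with and 118, 43.2 and 84.9 CPM without them, and Cstdc5 at 4457, 3475 and 5708 CPM with and 882, 1412 and 2186 CPM without. For all 3 genes every value with keratins was above every value without. Csta1, Stfa1 and Spink5 did not overlap either, while Prss22, Prss27 and Tmprss11d did.

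After the keratin-carrying cells and the 10 limbal cells under 2000 UMIs were left out, 6 of the 9 members still passed against basal cells and 3 did not. Over all genes 3925 passed in that fit, against 5029 with all limbal cells (40.4% of those tested in the latter). The share of all genes that passed without the keratin-carrying cells is not given here, so 6 of 9 has no background beside it. Serpinb3a was at 6.48 (adjusted p = 1.84e-07), Spink5 at 3.67 (adjusted p = 1.77e-08), Cstdc5 at 2.74 (adjusted p = 0.0372) and Prss27 at 1.85 (adjusted p = 1.16e-04) in edgeR. Asprv1 was at 2.37 (adjusted p = 0.0743), Csta1 at 0.20 (adjusted p = 0.235) and Prss22 at −0.035 (adjusted p = 0.924). The part of these keratin-carrying cells in the differences from basal cells beyond these values was not tested.

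**Figure D4:**
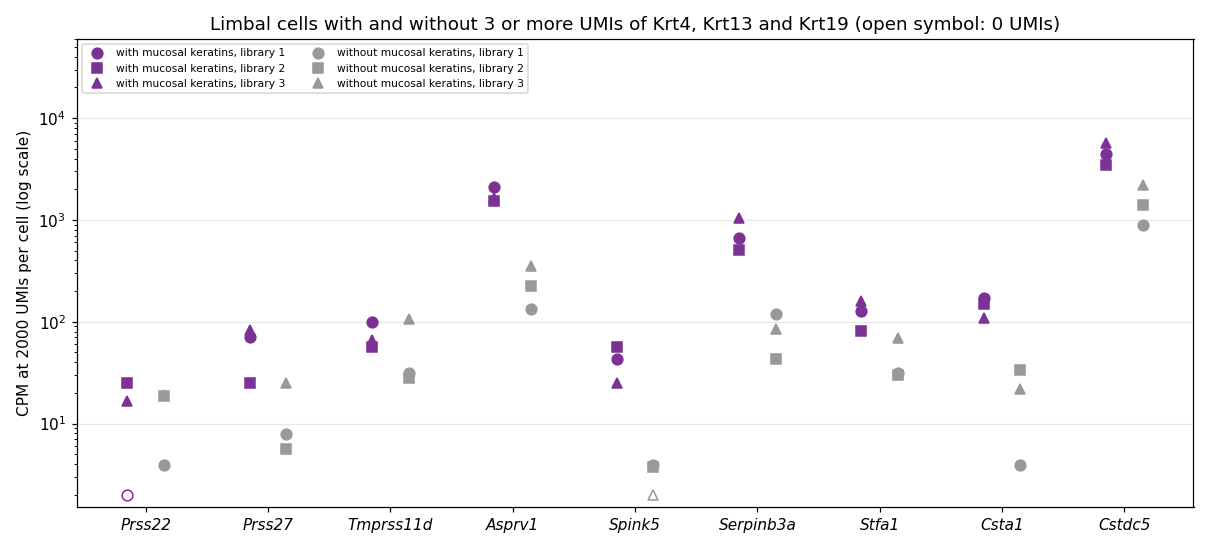
CPM at 2000 UMIs per cell on a log axis for the 9 genes in limbal cells with (left of each gene) and without (right) 3 or more UMIs of Krt4, Krt13 and Krt19; symbols are the 3 libraries and open symbols 0 UMIs. Asprv1 sits at 1550.0 to 2086 CPM with and 134 to 352 CPM without these keratins.

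In TAC cells, the sum of TAC1 and TAC2, 3 members rose, 3 fell and 3 did not pass against basal cells. TAC1, which carries few cycling markers, was the larger class in libraries 1 and 2. In library 3 TAC2 was the larger (1441 cells, against 1156 of TAC1), so the mix differs between libraries. Of 12782 genes 42.7% passed, 22.7% higher and 20.0% lower, and the median of the members was 0.17 beside −0.018 over all genes. Tmprss11d fell to 450.1 ± 47.6 CPM in TAC cells, against 563 ± 30.9 CPM in basal cells (−0.35 ± 0.043, adjusted p = 5.3e-07 by edgeR). TAC1 alone was at −0.085 (adjusted p = 0.0644) and TAC2 alone at −0.78 (adjusted p = 2.34e-10). Prss22 (−0.27 ± 0.074, adjusted p = 0.0059) and Csta1 (−0.15 ± 0.055, adjusted p = 0.034) fell, and Serpinb3a (2.39 ± 0.16, adjusted p = 2.2e-11), Spink5 (1.68 ± 0.22, adjusted p = 1.2e-06) and Stfa1 (0.42 ± 0.073, adjusted p = 5.7e-05) rose, all at mean levels inside the immune range. In TAC2 alone Serpinb3a was at 3.43 (adjusted p = 4.54e-13) and Spink5 at 2.41 (adjusted p = 3.22e-08), and in TAC1 alone they were at 0.34 (adjusted p = 0.339) and 0.65 (adjusted p = 0.0479). Stfa1 lost its call at 2000 UMIs (0.0054, adjusted p = 0.985), without the highest doublet scores (0.14, adjusted p = 0.202) and in TAC1 alone (0.019, adjusted p = 0.883). Csta1 lost its call without library 1 (−0.13, adjusted p = 0.209), without library 3 (−0.090, adjusted p = 0.243) and when scaled to totals (−0.12, adjusted p = 0.087), and Prss22 without library 1 (−0.26, adjusted p = 0.0621) and at 2000 UMIs (−0.34, adjusted p = 0.118). Asprv1 (0.17 ± 0.14, adjusted p = 0.45) turned to −0.16 (adjusted p = 0.00528) without the highest doublet scores. Cstdc5 (0.47 ± 0.19, adjusted p = 0.2) passed without library 1 (0.60, adjusted p = 0.0178), without library 2 (0.27, adjusted p = 7.61e-05) and in TAC2 alone (0.68, adjusted p = 0.0112). With no filter on low counts Asprv1 (0.17, adjusted p = 0.00135) and Cstdc5 (0.47, adjusted p = 4.42e-24) passed as well, and with DESeq2 Prss22 (−0.27, adjusted p = 0.186) and Csta1 (−0.16, adjusted p = 0.267) did not. Prss27 was at 0.042 ± 0.14, adjusted p = 0.83. Without the highest doublet scores Serpinb3a was at 1.68 (adjusted p = 2.81e-05) and Spink5 at 0.91 (adjusted p = 0.00545).

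Other proteases of such epithelia, with the protease receptor F2rl1 a list of 33 genes of which 29 were in the table, were often highest in superficial cells. Of 17 with a mean of at least 10 CPM over the sums, 10 were highest in superficial, 3 in limbal and 2 in basal cells. In superficial against wing cells 23 of 27 tested rose and 4 fell (16 and 7 when scaled to totals), with a median of 1.78 beside −0.11 over all genes. The share that passed with TMM was 100%, beside 78.8% of all genes. Prss8, the membrane-anchored protease prostasin, was at 312 ± 33.2 CPM in superficial and 30.4 ± 1.58 CPM in wing cells (4.33 ± 0.078, adjusted p = 2.1e-17 by edgeR), and the secreted Prss23 at 646 ± 21.9 CPM in superficial and 149.7 ± 7.97 CPM in wing cells (3.09 ± 0.062, adjusted p = 5.2e-17). In conjunctival against superficial cells 1 of 27 rose and 21 fell (5 and 16 when scaled to totals), among them Prss8 (−3.88 ± 0.093, adjusted p = 8.2e-16) and Tmprss4, a transmembrane serine protease (−1.50 ± 0.067, adjusted p = 7.1e-14). With TMM 81.5% passed, beside 71.1% of all genes. Against basal cells 12 of 24 rose and 7 fell in wing cells, 14 of 24 rose and 6 fell in conjunctival, 10 of 22 rose and 4 fell in limbal, and 3 of 23 rose and 9 fell in TAC cells. The share that passed was 79.2% in wing (of all genes 77.0%), 83.3% in conjunctival (76.9%), 63.6% in limbal (40.4%) and 52.2% in TAC cells (42.7%), near that of all genes in wing and conjunctival cells. Relatives of Tmprss11d in the same gene family went both ways. Tmprss11b was at 1.31 ± 0.052, adjusted p = 2.6e-10 in wing cells. Tmprss11a fell in each of these comparisons with basal cells. It was at −1.05 ± 0.047, adjusted p = 8.4e-10 in wing and −2.19 ± 0.078, adjusted p = 2e-11 in conjunctival cells. In limbal cells it was at −1.23 ± 0.074, adjusted p = 3.6e-28, and in TAC cells at −0.14 ± 0.039, adjusted p = 0.0062 by edgeR. Tmprss4 went the other way, at 5.04 ± 0.11, adjusted p = 6.3e-11 in wing and 6.11 ± 0.14, adjusted p = 3.2e-10 in conjunctival cells.

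Other inhibitors, a list of 48 genes of which 36 were in the table, were spread over more classes. Of 15 with a mean of at least 10 CPM, 6 were highest in conjunctival and 3 in superficial cells. In superficial against wing cells 18 of 26 rose and 2 fell (12 and 9 when scaled to totals), with a median of 1.28 beside −0.11 over all genes. The share that passed there was 76.9%, near the 78.8% of all genes. Slpi, a secreted inhibitor of leukocyte elastase, was at 71.1 ± 9.96 CPM in superficial and 4.67 ± 0.573 CPM in wing cells (4.90 ± 0.078, adjusted p = 5.5e-18 by edgeR). Cstb, the stefin B gene, was at 734 ± 99.4 CPM in superficial and 661 ± 122.8 CPM in wing cells, with 1.13 under TMM and 0.16 when scaled to totals. Spint2, a Kunitz-type inhibitor of matriptase and prostasin, was at 0.94 under TMM and −0.035 scaled to totals. In conjunctival against superficial cells 5 of 23 rose and 13 fell (14 and 5 when scaled to totals), with Serpinb2 at 4.31 ± 0.21, adjusted p = 3.7e-13 and Serpinb8 at −2.57 ± 0.069, adjusted p = 2.7e-17. The share that passed there was 78.3%, beside 71.1% of all genes. Against basal cells 17 of 23 rose and 6 fell in conjunctival, 15 of 26 rose and 8 fell in wing, 17 of 23 rose and 2 fell in limbal, and 5 of 22 rose and 5 fell in TAC cells. In conjunctival cells every inhibitor tested passed (of all genes 76.9%), and the share was 88.5% in wing (77.0%), 82.6% in limbal (40.4%) and 45.5% in TAC cells (42.7%), the last near that of all genes. Serpinb5, known as maspin, was at 339 ± 58.7 CPM in limbal and 526 ± 74.6 CPM in basal cells (−0.76 ± 0.073, adjusted p = 4.5e-16 by edgeR), and Serpinb2 at 6.62 ± 0.33, adjusted p = 3.2e-34.

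Likeness of pattern was measured by Pearson's r of log2(CPM + 1) over the 24 sums of 8 classes in 3 libraries, among 7005 genes with a mean of at least 10 CPM. The sums share libraries and depth, so r is a description. Prss22 was most like Prss8 (r = 0.982), Gpcpd1 (r = 0.976) and Fndc3a (r = 0.970), and Prss27 most like Sgms2 (r = 0.994), Trp53inp2 (r = 0.992) and Trex2 (r = 0.990). Asprv1 was most like Nccrp1 (r = 0.994), Cryab (r = 0.991) and Muc20 (r = 0.984), and Tmprss11d most like Mgarp (r = 0.969), Gyg (r = 0.961) and Gkn1 (r = 0.960). All 9 genes most like Prss22, Prss27 and Asprv1 were highest in superficial cells, and all 3 most like Tmprss11d in basal cells. Among the inhibitors, Spink5 was most like Ephx3 (r = 0.965), Oit1 (r = 0.964) and Gsn (r = 0.964), and Serpinb3a most like Sptssb (r = 0.968), Cyp2f2 (r = 0.946) and Agr2 (r = 0.939). Stfa1 was most like Pdzk1ip1 (r = 0.987), Krt6b (r = 0.985) and Evpl (r = 0.978), Csta1 like Capn5 (r = 0.995), H60c (r = 0.988) and Wfs1 (r = 0.988), and Cstdc5 like Eps8 (r = 0.993), Pglyrp1 (r = 0.989) and Ceacam1 (r = 0.988). Between members, Asprv1 and Cstdc5 had the highest r at 0.97, Asprv1 and Tmprss11d the lowest at −0.70, and Prss22 and Serpinb3a stood at 0.080.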

How the data were processed

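The authors deposited 1 table of unnormalized UMI counts, genes by cells, and a deposited table of cells gave each cell's library and class. Cell Ranger 5.0.0, Seurat 4 and build mm10 are named in the submitters' processing notes, with no role given. Cell filters, doublet removal and the labelling method: not given in the sources used here. LSC, Squam and Conj were read as limbal, superficial and conjunctival from markers. Libraries 2 and 3 were matched by number, library 1 by elimination. Members and lists were chosen with earlier results of these data known. Named genes are all members, up to 4 genes of each list per comparison (of those passing, 2 by abundance and 2 by size of change) and the 3 most alike. Counts were summed per library and class and tested with edgeR 4.0.16 (quasi-likelihood F test, TMM, filterByExpr, robust fit, library block) in R 4.3.3. Both classes of a pair come from the same libraries, so the block pairs them by construction. Replicates are pools of mice. Alternatives were DESeq2 1.42.0, totals, no filter, no block, each library left out, 2000 UMIs, no high doublet scores, reassigned classes, 50% of UMIs, limbal cells without keratins, and each TAC class. The scripts were tested on simulated data.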

Additional observations from a re-analysis of the deposited data

Results flagged for a closer look

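Csta1 in TAC against basal cells was close to no change in library 2 and lower in libraries 1 and 3. Its level in both classes was inside the immune range of 0 to 76.6 CPM. The log2 ratio of its CPM was 0.031 in the female library 2, against −0.20 and −0.20 in the male libraries 1 and 3. The difference between the libraries was not tested, and sex, age and pooling change together between them.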

How the results depend on the processing

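Of 620 fold changes of members under other settings, 560 kept their direction and side of the threshold, 37 lost and 10 gained a call, and 13 changed sign. With a call on at least one side these were Prss22 in limbal against basal cells (−0.24 without the highest doublet scores and −0.035 without keratin-carrying cells), Asprv1 in TAC against basal cells (−0.16 without the highest doublet scores and −0.16 in TAC1 alone), and, scaled to totals, Stfa1 in superficial against wing (−0.38) and Tmprss11d in conjunctival against superficial cells (0.36). With no call on either side they were Prss27 in TAC against basal cells (−0.13 to 0.19 with 1 library left out, the lowest without library 3, −0.28 at 2000 UMIs, −0.24 without the highest doublet scores, −0.079 with reassigned classes, −0.012 on 50% of UMIs and −0.21 in TAC1 alone) and Asprv1 there (−0.0007 with reassigned classes). The cause was not tested. Genes called in limbal against basal cells numbered 5029, against 3193 with DESeq2 and 1942 at 2000 UMIs. In TAC against basal cells they numbered 5457, against 2767 with DESeq2, 2837 at 2000 UMIs and 1589 without the replicate block, which also ended the calls of Prss22, Tmprss11d, Spink5, Stfa1 and Csta1 there. Without the block Serpinb3a in superficial against wing cells lost its call too (−0.55, adjusted p = 0.288 by edgeR), and no other member call changed. At 2000 UMIs 6404 genes passed in conjunctival against basal cells, beside 9690, and 5170 in conjunctival against superficial cells, beside 8366, with fewer UMIs in each sum. Leaving out 1 library gave 3458 to 4293 genes in limbal, 3942 to 5132 in TAC, 9571 to 10218 in wing and 8574 to 9180 in conjunctival against basal cells, 9480 to 9832 in superficial against wing and 7372 to 7880 in conjunctival against superficial cells. Depth limits the genes of lowest level, since basal sums held 7 to 32 UMIs of Spink5 and 19 to 31 of Serpinb3a.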
